A study of Mus musculus with 12 samples.

Results

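A set of 51 genes of fibroblasts, smooth muscle and extracellular matrix was followed in cultures of bone marrow derived macrophages (BMDMs), with 5 libraries from Baf60a knockout (KO) cells and 7 from wild-type (WT) cells. The members were chosen by symbol, as collagen, matrix, contractile and mesenchymal genes, and all 51 were found among the 23438 genes of the deposited table. All 12 libraries came from primary marrow cells of C57 mice with atherosclerosis, taken on day 7 of macrophage differentiation, so disease and culture time were shared by KO and WT. The sources used here do not give the age of the mice, the way the KO was made or the number of mice per library. No label said whether libraries came from separate animals, so p-values measure only how these libraries spread, which may be technical.

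Marrow holds stromal cells beside its blood-forming cells, and such cells can attach to the dish and grow when macrophages are raised from marrow. Fibroblasts secrete fibrillar collagens, which are folded in the endoplasmic reticulum, trimmed outside the cell and cross-linked by lysyl oxidases into fibres that proteoglycans and matricellular proteins decorate. Contractile fibroblasts (myofibroblasts) and smooth muscle cells add alpha smooth muscle actin and the proteins that bind it. Stromal cells of marrow also make Cxcl12 and Vcam1, which hold blood-forming cells in the niche. Macrophages themselves make some matrix and actin-binding proteins.

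Smarcd1, which encodes Baf60a, averaged 6.90 ± 0.579 TPM (the length-corrected share of a library that the transcripts of a gene take) in KO libraries (SD, n = 5) and 13.6 ± 1.40 TPM in WT libraries (SD, n = 7), and the groups did not overlap. WT replicates 2, 3 and 4 stood apart from the other 9 libraries in many genes, so results are given with all 12 libraries and with these 3 left out. No label names a batch that holds them. They are not a group of the study and were not averaged or tested as one. TPM holds no read depth, so no counting error could be given. In bulk RNA, more stromal cells and more RNA of these genes per cell cannot be told apart.

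The summed level of the 51 genes was 883, 1688, 1666, 1167 and 2171 TPM in KO replicates 1 to 5. It was 15875, 11367 and 28188 TPM in WT replicates 2, 3 and 4, and 1667, 1564, 644 and 1633 TPM in WT replicates 1, 5, 6 and 7. WT replicates 2, 3 and 4 therefore lay far above all others, while the KO libraries and the remaining WT libraries overlapped. As a share of the TPM in the table, the members made up 1.69%, 1.205% and 2.99% in WT replicates 2, 3 and 4, between 0.0936% and 0.230% in KO libraries, and between 0.0679% and 0.176% in the remaining WT libraries. WT replicate 6 was the lowest of the 12 and KO replicate 5 the highest of the 9.

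**Figure D1:**
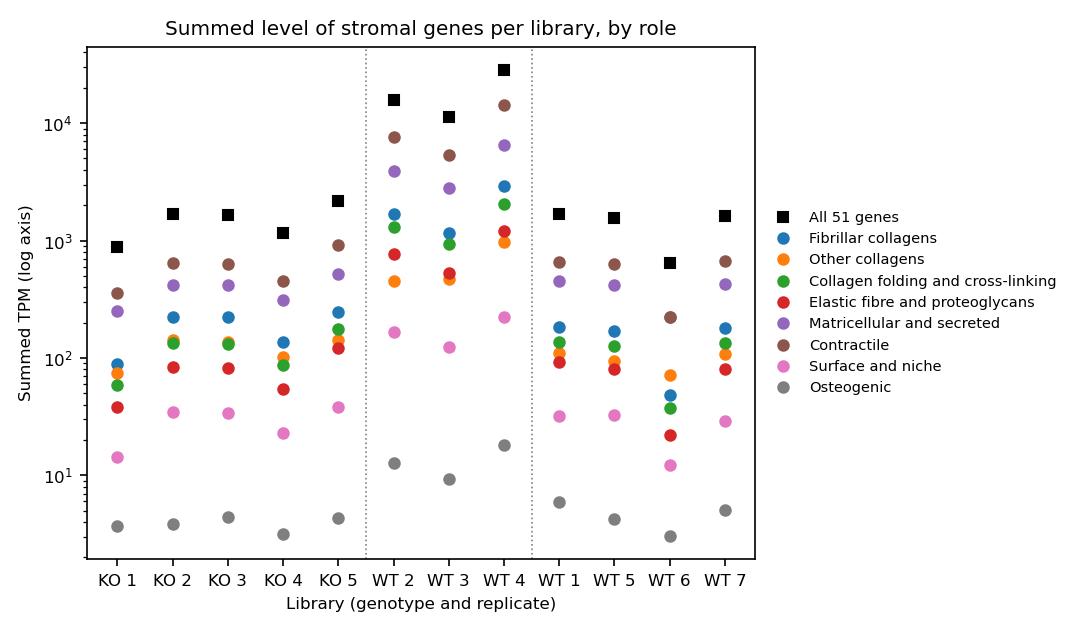
Summed TPM of the 51 genes (black squares) and of each of their 8 roles (coloured points) in each library, on a log axis, with KO libraries left of WT libraries and WT replicates 2, 3 and 4 left of the other WT libraries. For all 51 genes, WT replicates 2, 3 and 4 lie between 11367 and 28188 TPM, and the other 9 libraries between 644 and 2171 TPM.

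The fibrillar collagens form the bulk of connective tissue fibres. Col1a1 (chromosome 11, 94936224 to 94953042 in GRCm38), a chain of type I collagen, was at 25.65, 73.3, 72.2, 42.1 and 68.2 TPM in KO replicates 1 to 5, at 480.4, 327 and 822 TPM in WT replicates 2, 3 and 4, and at 58.9, 46.6, 15.7 and 57.4 TPM in the WT libraries 1, 5, 6 and 7. Its partner chain Col1a2 (chromosome 6, 4504814 to 4541544) was at 26.8, 79.5, 77.0, 45.2 and 81.9 TPM in KO, at 642, 435 and 1014 TPM in WT replicates 2, 3 and 4, and at 61.7, 59.0, 16.2 and 62.4 TPM in the other WT libraries. Both chains had the same order of libraries at the top, with WT replicate 4 first, and both were lowest in WT replicate 6. Col3a1, which co-assembles with type I collagen, was at 9.01, 17.55, 18.3, 12.7 and 25.35 TPM in KO, at 66.5, 77.1 and 110.5 TPM in WT replicates 2, 3 and 4, and at 13.1, 13.0, 3.93 and 13.2 TPM in the other WT libraries. The type V chains Col5a1 and Col5a2, which control the diameter of fibres, followed the same split. Col5a2 was at 398, 236 and 771 TPM in WT replicates 2, 3 and 4, and between 8.64 and 51.05 TPM in the other 9 libraries.

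Among the other collagens, the members split into basement membrane, microfibrillar and endothelial-type chains. Col4a1 and Col4a2, the main chains of basement membrane, lie head to head on chromosome 8 (11198423 to 11312826 and 11312805 to 11449287) and share 22 bases at their starts. Col4a1 was at 5.87, 16.5, 13.7, 9.89 and 21.4 TPM in KO replicates 1 to 5, at 151, 191 and 451 TPM in WT replicates 2, 3 and 4, and at 12.7, 9.65, 3.30 and 17.4 TPM in the WT libraries 1, 5, 6 and 7. Col6a1, a chain of the beaded filaments around cells, was at 3.22, 8.62, 7.99, 5.42 and 9.74 TPM in KO, at 20.8, 26.2 and 17.2 TPM in WT replicates 2, 3 and 4, and at 5.47, 5.25, 1.83 and 5.88 TPM in the other WT libraries. The type VI chains were thus less far apart than the type IV chains in WT replicates 2, 3 and 4: the lowest of these 3 libraries exceeded the highest of the other 9 by 7.04 times for Col4a1 and by 1.77 times for Col6a1. For Col6a2 and Col6a3 this ratio was 1.24 and 1.23. Col8a1, a short-chain collagen of vessel walls, had the wide gap, with a ratio of 7.66. It was at 73.4, 47.9 and 121 TPM in WT replicates 2, 3 and 4 and between 1.23 and 6.26 TPM in the other 9. Col12a1, which coats fibrils, lay between the type VI and type IV chains, with a ratio of 3.54. Its levels were 89.0, 53.4 and 129 TPM in the 3 libraries and between 2.65 and 15.1 TPM in the other 9.

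Col18a1 (chromosome 10, 77052178 to 77166548), whose protein carries the endostatin fragment, ran against the rest. It was at 50.5, 77.3, 75.4, 61.0 and 58.2 TPM in KO replicates 1 to 5, at 16.6, 28.25 and 19.2 TPM in WT replicates 2, 3 and 4, and at 54.4, 49.8, 57.2 and 53.7 TPM in the WT libraries 1, 5, 6 and 7. It was the only member whose level in WT replicates 2, 3 and 4 lay below all other libraries, and WT replicate 6, lowest for most collagens, was the highest of the remaining WT libraries for this gene.

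Genes of collagen folding and cross-linking had the pattern of the fibrillar collagens. Serpinh1, the collagen chaperone of the endoplasmic reticulum, was at 24.9, 64.8, 63.65, 38.55 and 73.6 TPM in KO replicates 1 to 5, at 562, 435 and 1065 TPM in WT replicates 2, 3 and 4, and at 59.9, 54.9, 16.2 and 59.7 TPM in the other WT libraries. Lox, the founding lysyl oxidase, was at 299.6, 172 and 412 TPM in WT replicates 2, 3 and 4, and between 8.45 and 37.5 TPM in the other 9 libraries. Loxl1, Loxl2 and Loxl3, related oxidases, showed the same order, with WT replicate 4 highest of the 12 for each.

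The elastic fibre and proteoglycan genes were mixed. Fbn1, the microfibril protein fibrillin, was at 36.5, 30.0 and 51.1 TPM in WT replicates 2, 3 and 4, and between 1.73 and 10.7 TPM in the other 9. Fbln2, a fibulin of elastic fibres and basement membrane, was at 136, 84.5 and 245 TPM in WT replicates 2, 3 and 4, and between 1.88 and 9.74 TPM in the other 9. Mgp, an inhibitor of matrix calcification, was at 0.29, 1.71, 2.03, 1.17 and 2.11 TPM in KO, at 11.6, 40.85 and 15.3 TPM in WT replicates 2, 3 and 4, and at 3.71, 1.71, 0.07 and 2.31 TPM in the other WT libraries, so its peak lay in WT replicate 3 and not in WT replicate 4. Dcn (chromosome 10, 97479609 to 97518143), the collagen-binding proteoglycan decorin of fibroblasts, did not separate the libraries. It was at 3.06, 7.24, 6.38, 4.38 and 8.84 TPM in KO, at 11.05, 3.22 and 4.38 TPM in WT replicates 2, 3 and 4, and at 5.26, 7.93, 2.06 and 5.85 TPM in the other WT libraries. The related Lum stayed at or below 0.12 TPM and Eln, the elastin gene, at or below 0.22 TPM in all 12 libraries. Bgn, a relative of decorin, instead reached 571, 368 and 889 TPM in these 3 libraries, against 16.2 to 90.8 TPM in the other 9.

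Matricellular and secreted genes held the steepest separations outside the contractile set. Postn (chromosome 3, 54361109 to 54391037), periostin of activated fibroblasts, was at 10.8, 16.1, 14.9, 11.1 and 15.1 TPM in KO, at 497, 302 and 727 TPM in WT replicates 2, 3 and 4, and at 16.5, 9.69, 3.75 and 13.1 TPM in the other WT libraries. The lowest of the 3 libraries was thus 18.3 times the highest of the other 9. Sparc (chromosome 11, 55394500 to 55423183), a collagen-binding glycoprotein, was among the most abundant members, at 1134, 882 and 2082 TPM in WT replicates 2, 3 and 4 and between 29.6 and 136 TPM elsewhere. Igfbp5 reached 7.77, 14.45 and 10.97 TPM in WT replicates 2, 3 and 4, with at most 0.53 TPM in the other 9, and Igfbp7 reached 727, 526.5 and 955 TPM, against 12.5 to 62.2 TPM. Both encode binding proteins of insulin-like growth factors. The thrombospondins Thbs1 and Thbs2, the tenascin Tnc and the follistatin-like Fstl1 had the same split, with Thbs1 the most abundant of them, at 1058, 661 and 2005 TPM in WT replicates 2, 3 and 4 and between 42.3 and 147 TPM in the other 9. Their relative Igfbp4 had the opposite tendency and is described with the KO comparison.

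The contractile genes gave the largest part of the summed level. Acta2 (chromosome 19, 34241090 to 34255590), alpha smooth muscle actin, was at 65.5, 137, 130.45, 88.9 and 215 TPM in KO replicates 1 to 5, at 2076, 1574 and 4236 TPM in WT replicates 2, 3 and 4, and at 148, 138, 42.3 and 144 TPM in the WT libraries 1, 5, 6 and 7. Tagln (chromosome 9, 45929619 to 45936058), the actin-binding transgelin, was at 58.35, 119, 114, 76.6 and 199 TPM in KO, at 2149.7, 1467 and 3563 TPM in WT replicates 2, 3 and 4, and at 126, 124, 31.0 and 137 TPM in the other WT libraries. The pair kept the same order in the KO libraries, with KO replicate 5 highest. Cnn1 (chromosome 9, 22099216 to 22109630), the calponin of differentiated smooth muscle, had the widest gap of all members. It was at 2.53, 3.49, 3.16, 2.37 and 5.18 TPM in KO, at 133, 109.6 and 469.6 TPM in WT replicates 2, 3 and 4, and at 3.86, 3.60, 0.77 and 2.97 TPM in the other WT libraries, so that the lowest of the 3 libraries was 21.2 times the highest of the other 9. Cnn2, a calponin of non-muscle cells, differed less, at 225, 148 and 395 TPM against 20.5 to 43.9 TPM in the other 9. The tropomyosins Tpm1 and Tpm2 and caldesmon, Cald1, which binds actin with them, had gaps between those of the calponins: Tpm1 was at 1264, 871 and 2236 TPM in WT replicates 2, 3 and 4 and between 92.4 and 238 TPM in the other 9. Des, the intermediate filament of muscle, stayed at or below 3.81 TPM in all libraries. Acta2 has near-identical actin paralogs, so its level depends on how reads were divided among them.

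Many smooth muscle genes carry the CArG box, the site of serum response factor. RefSeq promoter windows of 250 bases before the start were matched for 34 of the 51 members, in 40 windows, and were searched on both strands. The CArG box was searched only in its strict form, CC and GG around a run of A or T. Variants with another base were not counted, so a gene without a match may still carry one. The strict box was found for 2 of the 34 genes, Cnn2 and Myl9. That was 2 of the 40 windows, against 1.47% of all 32851 windows. No other searched motif overlapped the box in these 2 genes. Their windows up to the first annotated exon are printed for that match, on the plus strand of GRCm38.p6 as given by RefSeq, with the box in capitals. That of Myl9, a myosin light chain, is chr2:156775214-156775419 with the box 161 bases before the start, and that of Cnn2 is chr10:79988350-79988583 with the box 56 bases before it.
Myl9: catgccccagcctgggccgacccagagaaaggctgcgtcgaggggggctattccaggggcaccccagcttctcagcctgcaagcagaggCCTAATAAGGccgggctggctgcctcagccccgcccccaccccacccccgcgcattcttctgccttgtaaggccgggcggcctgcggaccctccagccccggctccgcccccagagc
Cnn2: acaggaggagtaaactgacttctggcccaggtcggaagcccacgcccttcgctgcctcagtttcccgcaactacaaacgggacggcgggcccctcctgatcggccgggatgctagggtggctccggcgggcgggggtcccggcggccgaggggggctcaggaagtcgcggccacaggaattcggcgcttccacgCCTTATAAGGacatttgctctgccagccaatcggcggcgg
Myl9 was at 13.7, 29.2, 35.3, 20.6 and 49.3 TPM in KO, at 378, 268 and 865 TPM in WT replicates 2, 3 and 4, and at 37.2, 33.6, 8.06 and 39.4 TPM in the other WT libraries. The 2 genes with the box thus differed by unlike amounts, and a match of letters does not show that the factor binds there. Of the other motifs searched, CCAAT was found in 9 of the 40 windows (33.8% of all windows), TATAAA in 8 (12.4%), GGAATG in 7 (12.6%) and GGGCGG in 22 (32.7%). These windows belong to 9, 7, 7 and 20 of the 34 genes.

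Surface and niche genes were low. Cxcl12, the chemokine that retains blood-forming cells, was at 57.4, 40.8 and 66.9 TPM in WT replicates 2, 3 and 4 and between 2.78 and 16.4 TPM in the other 9. Vcam1, an adhesion molecule that marrow macrophages also carry, was at 3.91, 12.2, 13.0, 7.16 and 7.12 TPM in KO, at 15.7, 18.3 and 23.0 TPM in WT replicates 2, 3 and 4, and at 8.44, 11.4, 6.47 and 7.93 TPM in the other WT libraries, with a gap of only 1.21 times. Cdh11, a cadherin of mesenchymal cells, had a wide gap, at 65.0, 39.15 and 85.8 TPM against 1.49 to 7.72 TPM. The receptor genes Pdgfra and Pdgfrb, which mark fibroblasts and pericytes, reached at most 5.57 and 33.4 TPM, both in WT replicate 4. Thy1, a surface marker of many fibroblasts, was at 3.17, 5.09 and 9.19 TPM in WT replicates 2, 3 and 4 and at most 0.37 TPM in the other 9. Of the osteogenic genes, Runx2, the transcription factor of bone-forming cells, was at 8.15, 8.12 and 12.03 TPM in WT replicates 2, 3 and 4 and between 2.91 and 5.61 TPM elsewhere, and Alpl, alkaline phosphatase, at 4.60, 1.12 and 6.09 TPM and at most 0.46 TPM elsewhere.

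Over all 51 members, WT replicates 2, 3 and 4 lay above the other 9 libraries in 46, below them in 1 (Col18a1), and overlapped them in 4 (Eln, Lum, Dcn and Igfbp4). Among the 44 members at 1 TPM or more in at least 5 libraries, 41 lay above, while 23.6% of all 11152 genes that passed this filter lay above and 25.5% below. The 3 libraries were seen to stand apart partly through such genes, so these counts are a description. In the 46 members, the lowest of the 3 libraries was a median of 4.54 times the highest of the other 9, and 20 members had a ratio of at least 5. WT replicate 4 was the highest of the 3 in 42 members, WT replicate 3 in 7 (among them Mgp, Igfbp5, Col6a1 and Col6a2) and WT replicate 2 in 2 (Dcn and Lum).

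**Figure D2:**
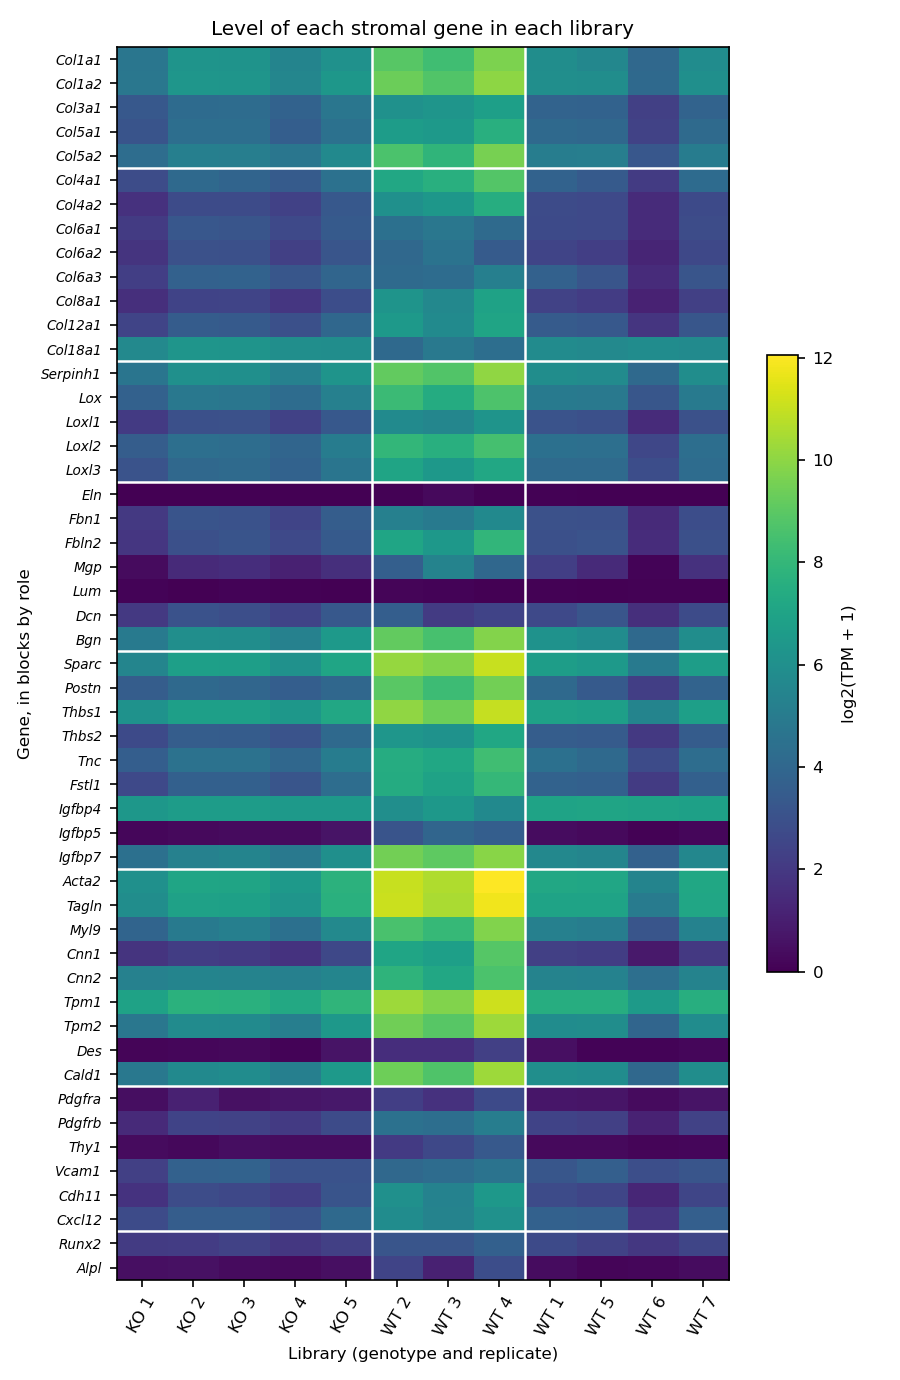
Level of each of the 51 genes (rows, grouped by role) in each library (columns), as colour on a log2(TPM + 1) scale. WT replicates 2, 3 and 4 form a high block across 46 of the 51 rows, with Col18a1 lower there and Eln, Lum, Dcn and Igfbp4 overlapping the other libraries.

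The make-up of the summed level was then compared, as the share that each role took of the 51-gene total. Contractile genes took 47.8%, 47.0% and 50.5% in WT replicates 2, 3 and 4, against 38.1% to 42.5% in KO libraries and 35.0% to 40.9% in the remaining WT libraries. Fibrillar collagens took 10.6%, 10.2% and 10.3% there, inside the range of 9.98% to 13.4% in KO libraries and of 7.58% to 11.1% in the remaining WT libraries. Other collagens took less, at 2.83%, 4.13% and 3.42%, against 6.52% to 8.75% in KO and 6.02% to 11.1% in the remaining WT libraries, and so did surface and niche genes and osteogenic genes. The total includes Col18a1 and Igfbp4, whose levels run against the rest and which took 2.68% to 8.89% and 4.12% to 19.2% of it in the other 9 libraries, against at most 0.249% and 0.749% in WT replicates 2, 3 and 4. On a total of the other 49 genes, chosen after seeing the data, contractile genes took 48.0%, 47.5% and 50.7% in WT replicates 2, 3 and 4, against 42.6% to 47.3% in KO and 43.9% to 48.6% in the remaining WT libraries, so the ranges overlapped. Other collagens overlapped as well, at 2.73%, 3.92% and 3.36%, against 3.24% to 4.28% in KO and 3.03% to 3.69% in the remaining WT libraries. Fibrillar collagens took 10.67%, 10.33% and 10.35% there, at or just below the low end of the 10.53% to 14.9% in the other 9. On that total, matricellular and secreted genes took more in WT replicates 2, 3 and 4 than in all other libraries, at 23.2% to 24.4% against 21.0% to 22.3%, and surface and niche genes took less, at 0.796% to 1.11% against 1.88% to 2.67%. The separation of the contractile and other collagen shares thus depended on these 2 genes.

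**Figure D3:**
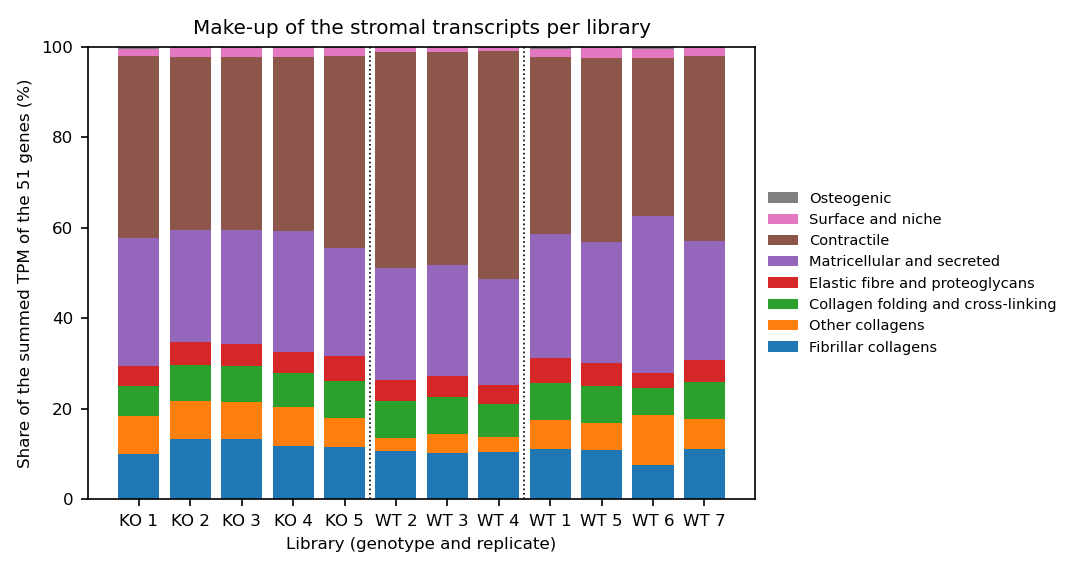
Percent of the summed TPM of the 51 genes taken by each of 8 roles in each library, as stacked bars. Contractile genes take 47.0% to 50.5% in WT replicates 2, 3 and 4, and 35.0% to 42.5% in the other 9 libraries, but without Col18a1 and Igfbp4 these ranges overlap.

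Gene by gene, the share of the total was higher in all 3 of WT replicates 2, 3 and 4 than in the other 9 libraries for 12 members, lower for 15, and overlapping for 24. On the total of 49 genes the counts were 8, 19 and 22. Acta2 took 13.1% to 15.03% of the total in WT replicates 2, 3 and 4 against 6.57% to 9.92% in the other 9, and Postn took 2.58% to 3.13% against 0.583% to 1.22%. Tpm1, a tropomyosin used by many cell types, took 7.66% to 7.96% against 10.7% to 14.4%, although its level was higher in these 3 libraries. Dcn took 0.016% to 0.070% against 0.316% to 0.507%. The 8 genes with a higher share on the total of 49 were Acta2, Tagln, Cnn1, Postn, Igfbp5, Igfbp7, Fbln2 and Col8a1, and the 19 with a lower share included the type VI collagens, Dcn, Pdgfra, Pdgfrb and Cxcl12.

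Ratios between partner genes showed which pairs moved together. The ratio of Col1a1 to Col1a2 was 0.833 to 0.956 in KO libraries, 0.748 to 0.811 in WT replicates 2, 3 and 4, and 0.790 to 0.970 in the remaining WT libraries, a spread of 1.30-fold over 12 libraries in which Col1a1 itself spanned 52.3-fold. Col4a1 to Col4a2 spread by 1.75-fold over a 137-fold range of Col4a1. The type V chains differed more in ratio: Col5a1 to Col5a2 was 0.416 to 0.566 in KO libraries, 0.250 to 0.369 in WT replicates 2, 3 and 4, and 0.446 to 0.521 in the remaining WT libraries, a spread of 2.27-fold without overlap between WT replicates 2, 3 and 4 and the rest. The calponin ratio, Cnn2 to Cnn1, was wider apart still, at 8.48 to 15.8 in KO libraries, 0.841 to 1.69 in WT replicates 2, 3 and 4, and 10.5 to 26.6 in the remaining WT libraries. Against Col1a1, Acta2 stood at 1.81 to 3.16 in KO, 4.32 to 5.15 in WT replicates 2, 3 and 4, and 2.51 to 2.95 in the remaining WT libraries, while Dcn stood at 0.088 to 0.130 in KO, 0.005 to 0.023 in WT replicates 2, 3 and 4, and 0.089 to 0.170 in the remaining WT libraries.

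**Figure D4:**
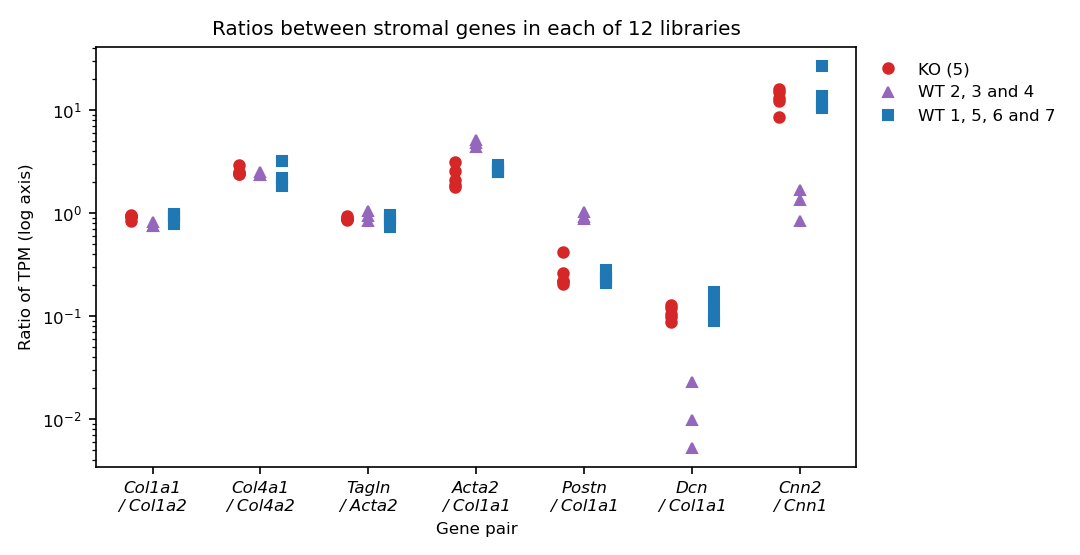
Ratio of the TPM of partner genes in each library, on a log axis, for 7 pairs of genes, with KO libraries as red circles, WT replicates 2, 3 and 4 as purple triangles and the other WT libraries as blue squares. The type I and type IV collagen pairs stay within 1.30-fold and 1.75-fold over all 12 libraries, while Cnn2 to Cnn1 is 0.841 to 1.69 in WT replicates 2, 3 and 4 and 8.48 to 26.6 in the other 9.

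Without WT replicates 2, 3 and 4, the members still ran together along the libraries. WT replicate 6 was the lowest of the 9 libraries in 41 of the 44 tested members, against 19.8% of the 10954 genes tested in these libraries, and KO replicate 5 was the highest in 37 of the 44, against 13% of them. WT replicates 1, 5 and 7 lay inside the range of the KO libraries in 39 of the 44 members. A single WT library therefore lay below the KO range and the rest within it. The summed level of 10 neutrophil genes was 6268, 2112, 1921, 4382 and 1012.5 TPM in KO replicates 1 to 5, so KO replicates 1 and 4, with the lowest stromal sums among KO, had the highest neutrophil sums. It was 151, 155 and 174 TPM in WT replicates 2, 3 and 4, and between 1202 and 1557 TPM in the remaining WT libraries. WT replicate 6, with the lowest stromal sum, also had the lowest neutrophil sum of these remaining libraries, at 1202 TPM. The part of neutrophil RNA in the stromal levels was not tested.

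The KO was compared with WT to ask whether loss of Baf60a went with a change in these genes. With all 12 libraries, none of the 44 tested members passed the threshold (Benjamini-Hochberg adjusted p under 0.05 in limma), where 0.126% of all 11152 genes did, 0.108% higher and 0.0179% lower. Of the 44, 2 had an unadjusted p under 0.05 (Col18a1 and Runx2), where 17.5% of all genes did. The log2 fold change was negative for 41 members and positive for Col18a1, Dcn and Igfbp4, with a median of -1.30 against 0.04 over all genes. The errors were large beside the differences: Acta2 had -1.77 ± 1.07 (SE, limma adjusted p of 0.340), Col1a1 -1.17 ± 0.891 (0.414) and Cnn1 -2.21 ± 1.33 (0.340). The median SE was 0.876 for the members and 0.115 for all genes. All KO libraries lay inside the wide WT range for these 3 genes. Over the whole table, 14 genes were called. Leaving out any 1 library gave 2 to 36 calls, with 36 without WT replicate 6, 21 without WT replicate 4, and 2 to 5 without any other.

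With the 9 libraries, the sign turned. The log2 fold change was positive for 40 members and negative for Igfbp4, Mgp, Vcam1 and Runx2, with a median of 0.22 against 0.05 over all genes, of which 67.5% were positive. Of the 44 members, 39 had opposite signs in the 12-library and 9-library fits. Col1a1 had 0.39 ± 0.432 (SE, limma adjusted p of 0.680), Acta2 0.15 ± 0.431 (0.886), and Col3a1 0.62 ± 0.367 (0.392). Of the 44, 1 was called, where 2.59% of the 10954 genes were: none was higher, where 1.82% were, and 1 was lower, where 0.776% were. The positive signs rested on WT replicate 6: without it, 8 members were positive and 36 negative, with a median of -0.15, and without KO replicate 5, 29 were positive and 15 negative, with a median of 0.07. The whole table had 284 calls, and 463 without WT replicate 6, 120, 102 and 83 without KO replicates 2, 3 and 4, and 51, 125 and 72 without WT replicates 1, 5 and 7.

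**Figure D5:**
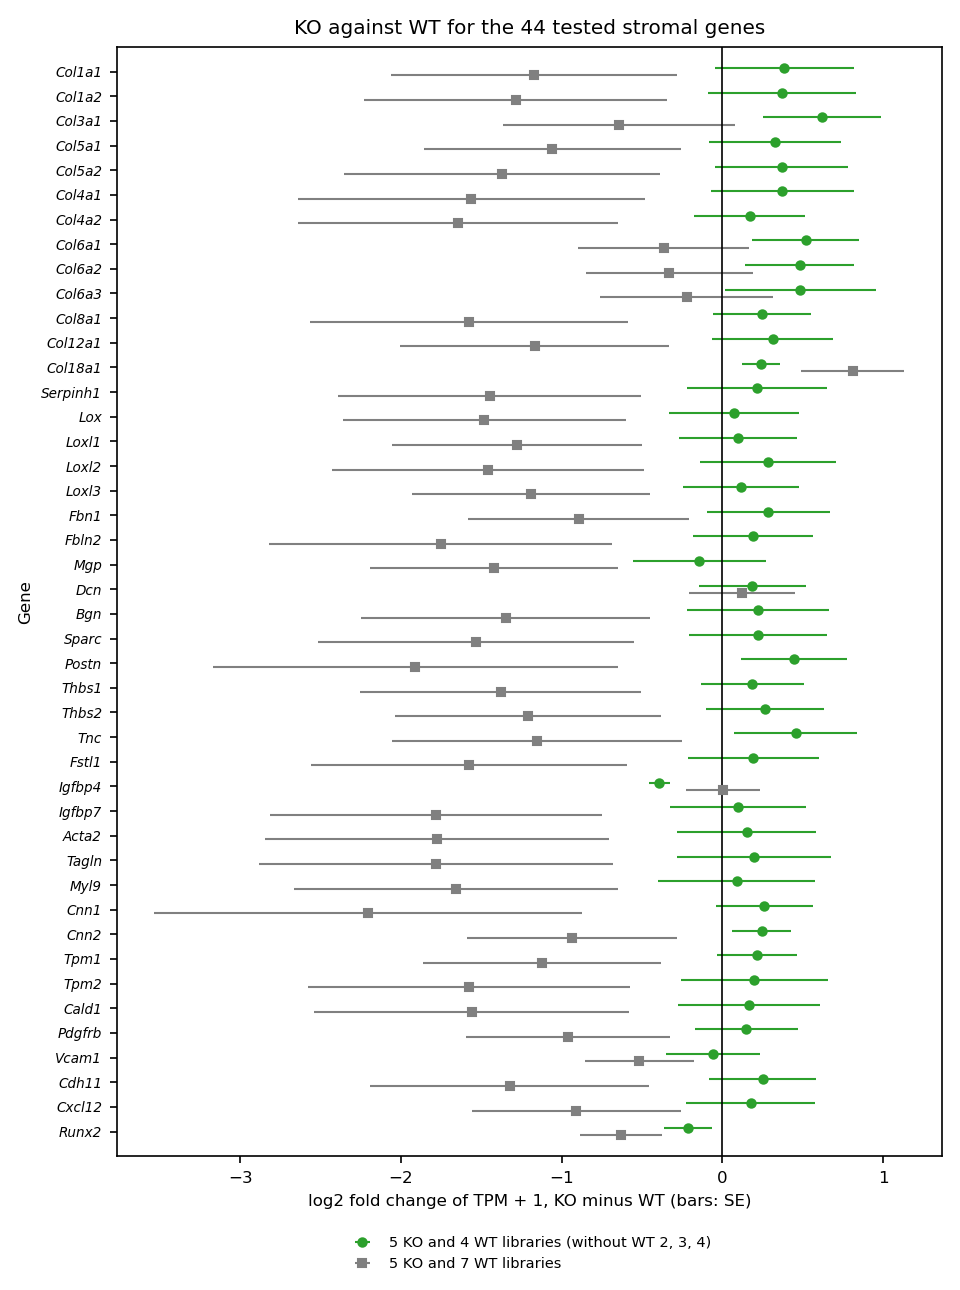
Log2 fold change of KO over WT for the 44 tested members, on the log2(TPM + 1) scale, with all 12 libraries (grey) and with 9 libraries, leaving out WT replicates 2, 3 and 4 (green), where bars are SE. With 12 libraries 41 members lie below 0, and with 9 libraries 40 lie above 0, with Igfbp4 the single call, at -0.39.

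The called member was Igfbp4 (chromosome 11, 99041244 to 99054392), whose secreted protein binds insulin-like growth factors. It was at 83.5, 100.1, 101, 92.15 and 89.4 TPM in KO replicates 1 to 5, against 124, 130.2, 123 and 113 TPM in the WT libraries 1, 5, 6 and 7, so that all 5 KO libraries lay below these 4 WT libraries. That held for 1 member and for 2.1% of all genes, and the opposite for 0 members and for 7.1% of all genes. It averaged 93.3 ± 7.51 TPM in KO (SD, n = 5) and 123 ± 7.28 TPM in these WT libraries (SD, n = 4). On the log2 scale KO differed by -0.39 ± 0.0643 (SE), at a limma adjusted p of 0.0188. WT replicate 6 lay within the range of the other 3 WT libraries. WT replicates 2, 3 and 4 had less than most, at 60.5, 85.1 and 51.0 TPM, and with all 12 libraries the log2 fold change was 0.00 ± 0.231 (SE, limma adjusted p of 0.993). The call with 9 libraries was lost without KO replicate 4 (limma adjusted p of 0.0581), WT replicate 1 (0.0658) or WT replicate 5 (0.0502), and over all 14 alternatives the log2 fold change stayed between -0.55 and -0.35, with adjusted p of 0.0097 to 0.428. Its RefSeq window, chr11:99040994-99041243 on the plus strand of GRCm38.p6, is printed as that of the called member, with TATAAA, 28 bases before the start, in capitals.
Igfbp4: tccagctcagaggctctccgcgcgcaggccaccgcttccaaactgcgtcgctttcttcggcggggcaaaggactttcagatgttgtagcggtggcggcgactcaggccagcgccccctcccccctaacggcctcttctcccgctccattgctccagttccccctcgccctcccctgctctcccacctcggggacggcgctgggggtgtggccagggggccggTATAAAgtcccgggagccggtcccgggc

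In the share of the 51-gene total, all 5 KO libraries lay above the remaining 4 WT libraries for 3 members and below for none. Col3a1 took 1.02% to 1.17% in KO against 0.611% to 0.833% in these WT libraries, Col6a1 0.365% to 0.511% against 0.284% to 0.360%, and Tnc, the matricellular tenascin, 1.245% to 1.501% against 0.884% to 1.24%. For Col6a1 and Tnc the 2 ranges nearly touched. The other 48 overlapped. On the total without Col18a1 and Igfbp4 the same 3 lay above and none below, and no test was made of the shares. In TPM, all 5 KO libraries lay above these 4 WT libraries for 0 members, where they did for 7.1% of all genes. A share of this kind was not counted over all genes.

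Further genes of the same pathways were compared in the same way. With 12 libraries, no gene of any further list was called, where 0.126% of all genes were. With 9 libraries, 2.59% of all genes were called, 1.82% higher and 0.776% lower, so lists this short cannot show a lack of calls. None of 19 tested collagen-processing enzymes was called with these 9, nor of 13 further contractile genes. Of 17 further matrix genes 1 was higher: Lamc1, a laminin chain, averaged 24.0 ± 1.21 TPM in KO (SD, n = 5) and 19.3 ± 0.817 TPM in WT (SD, n = 4), a log2 difference of 0.30 with a limma adjusted p of 0.0173. Its call was lost without WT replicate 1 (0.0568) or 7 (0.0578), as adjusted p. Of 23 genes of TGF-beta and PDGF signalling 1 was lower: Smad6, an inhibitory Smad, averaged 11.6 ± 0.816 TPM in KO (SD, n = 5) and 15.2 ± 1.17 TPM in WT (SD, n = 4), a log2 difference of -0.36 with a limma adjusted p of 0.0276. Its call was lost without KO replicate 2 (0.0527), 3 (0.0543) or 4 (0.0703), or WT replicate 1 (0.0836), 5 (0.0502) or 7 (0.0876), again as adjusted p. With 9 libraries, the median log2 fold change of these lists was 0.05 for enzymes, 0.11 for matrix, 0.15 for contractile and 0.04 for signalling genes, against 0.05 over all genes. With all 12 libraries these medians were -0.56, -1.05, -0.94 and -0.45, against 0.04 over all genes.

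In WT replicates 2, 3 and 4 most genes of the further lists lay high, as the members did: 17 of 22 collagen-processing enzymes, 27 of 36 matrix genes, 15 of 18 contractile genes and 16 of 27 signalling genes were above the other 9 libraries, with 0, 2, 0 and 5 below. Among those that passed the filter, 15 of 20, 13 of 18, 12 of 14 and 13 of 24 were above, where 23.6% of all genes were, and 0, 2, 0 and 5 were below, where 25.5% were. Tgfbi, a matrix protein that macrophages also make, went the other way, at 36.6 to 61.4 TPM in these 3 libraries, against 329.6 to 439 TPM in the other 9. Csf1, the growth factor of macrophages that stromal cells secrete, was between 282 and 695 TPM in the 3 libraries, against 10.6 to 53.8 TPM in the other 9. It came from a further list of 10 marrow niche genes. Of the 5 of these that passed the filter, 2 lay above, 2 below and 1 overlapped.

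Markers of other cell types were set beside these values. In WT replicates 2, 3 and 4, 8 of 12 endothelial genes lay above the other 9 libraries, with a summed level of 40.5, 117 and 35.9 TPM against 9.40 to 19.0 TPM, and none of the 12 was at 0 in all libraries. Of the 6 that passed the filter, 2 lay above and none below, where 23.6% and 25.5% of all genes did. Pericyte and glial genes lay above in 6 of 9, summing to between 22.7 and 46.0 TPM against 6.63 to 11.8 TPM. Only 2 of these genes passed the filter, with 1 above and 1 below. Of 7 epithelial genes 1 lay above, Krt19, and Krt8 was listed at 0 in all 12 libraries. None of the 7 passed the filter. Their sum was 13.2 TPM for WT replicate 2, 10.9 for WT replicate 3 and 39.1 for WT replicate 4. No other library exceeded 0.64 TPM. Krt19 was the most abundant, and 6 of the 7 stayed under 1 TPM throughout. Striated muscle genes overlapped in 10 of 10, at sums of at most 3.18 TPM, with Myh4 at 0 throughout. Of 8 adipocyte genes 2 passed the filter, with 1 above and 1 overlapping. The 8 summed to 228 TPM for WT replicate 2, 201 for WT replicate 3 and 128 for WT replicate 4. Elsewhere this sum ranged from 21.75 to 101 TPM. Of 12 osteoblast and cartilage genes 4 lay above, 1 below and 7 overlapped. Only 1 of them passed the filter, and it lay below. Spp1 was the most abundant of the 12, and 9 stayed under 1 TPM in all 12 libraries. WT replicate 3 had the most endothelial RNA of the 12. The part of these cell types in the levels of the 51 genes was not tested.

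The labelled cell type was checked by its markers, and all 12 macrophage genes listed passed the filter. Their summed level was 17144 to 17707 TPM in KO, 20986, 27710 and 8269 TPM in WT replicates 2, 3 and 4, and 26667 to 30732 TPM in the remaining WT libraries. Lyz2 and C1qb were the most abundant of the 12, so these sums weigh them most. The median log2 fold change of the 12 genes was -0.13 with 9 libraries, with 4 positive and 8 negative. With all 12 libraries it was 0.34, with 10 positive and 2 negative. Of the 12, 7 lay below the other 9 libraries in WT replicates 2, 3 and 4 and none above, where 25.5% and 23.6% of all genes did. With 9 libraries, 3 of the 12 were called lower in KO, where 0.776% of all genes were, and 1 higher, where 1.82% were. Lyz2, lysozyme, was lower in KO, by -1.55 on the log2 scale at a limma adjusted p of 5.6e-06. C1qc and Mpeg1 were lower, by -0.26 and -0.16, and Cd14 was higher, by 0.51, at limma adjusted p of 0.0425 to 0.0496. The call of C1qc or Cd14 was lost without any 1 library except WT replicate 6, and that of Mpeg1 without any 1 of the 9, at adjusted p of up to 0.133.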

How the data were processed

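Total RNA of 12 BMDM libraries (5 KO, 7 WT) was sequenced as paired reads, according to the labels' protocols. Tools named in the submitters' processing notes are bcl2fastq and Salmon 1.2.0, with mm10 as build. The sources used here do not give the annotation, how transcripts were summed to genes or how strand was handled. The authors deposited a single table of TPM for 23438 Ensembl genes, the unit being read from the values: columns summed to between 940127 and 947987. TPM is relative, so abundant transcripts lower all others, and it keeps no depth.

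IDs were matched to GENCODE symbols and GRCm38 coordinates (23423 matched). KO and WT were compared with limma 3.58.1 in R 4.3.3 (limma-trend) on log2(TPM + 1), over genes that reached 1 TPM in 5 or more libraries (11152 with 12 libraries, 10954 with 9), adjusted by Benjamini-Hochberg over all of them, with 0.05 as threshold. Folds are on that scale and understate changes of low genes. The fits were also run on simulated data with independent noise for each gene and library. That noise held no set of libraries standing apart, so it does not show how the fits perform with WT replicates 2, 3 and 4. Of the members, 44 were tested. Eln, Lum, Igfbp5, Des, Pdgfra, Thy1 and Alpl were too low. The members and gene lists were chosen with earlier results of these data known. All members could be named, and of each further list up to 3 called genes per direction and the 2 most abundant. Tables and figures were made with pandas 2.3.3, numpy 2.4.6 and matplotlib 3.10.9. Alternatives were a pseudocount of 0.1, no filter, median-ratio scaling, leaving out each library, and a replicate block.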

Additional observations from a re-analysis of the deposited data

Results flagged for a closer look

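Among the WT libraries other than replicates 2, 3 and 4, WT replicate 6 stood below the other 3 by a gap that took most of their range, for the summed level of all 51 genes (643.51 TPM) and for 6 of the 8 roles. These were fibrillar collagens at 48.75 TPM, folding and cross-linking genes at 37.53 TPM, elastic fibre and proteoglycan genes at 22.02 TPM, matricellular and secreted genes at 223.53 TPM, contractile genes at 225.0 TPM, and surface and niche genes at 12.36 TPM. The gap was between 0.832 and 0.931 of the range. Of 45 groups of values examined 7 were picked out in this way. Chance alone picks out about 1 in 20, and the 7 share 1 library and overlapping genes, so they are not separate observations.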

How the results depend on the processing

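Of 517 alternative values, 396 kept their direction and their side of the threshold or stayed within the spread, 58 lost the threshold, 5 gained it, 26 changed sign and 32 moved. With 12 libraries, genes called were 14, 4 with median-ratio scaling, 2 to 36 when 1 library was left out, and 284 with 9 libraries, and members called were 0, against 1 with 9 libraries. With 9 libraries, genes called were 284, 180 without the filter and 51 to 463 when 1 library was left out, and members called were 0 to 1. Median-ratio scaling gave 78 higher and 136 lower, against 199 and 85. With 12 libraries, Igfbp4 was at 0.00, with -0.023 under median-ratio scaling and -0.14 to 0.084 when 1 library was left out, and Mpeg1 was at -0.0037 to 0.21. With 9 libraries the log2 fold changes turned to -0.39 for Igfbp4, -0.16 for Mpeg1, 0.26 for Cnn1, 0.15 for Acta2, 0.39 for Col1a1, 0.62 for Col3a1 and -0.26 for C1qc. Within the 9, leaving out 1 library gave -0.28 to 0.36 for Acta2, -0.073 to 0.41 for Cnn1 and -0.044 to 0.64 for Col1a1. The cause of these changes was not tested. In the make-up, the gap from the lowest contractile share in WT replicates 2, 3 and 4 to the highest in the other 9 was 4.51 percentage points, and -1.15 on a total without Col18a1 and Igfbp4. For other collagens, the highest share in the 3 libraries less the lowest in the other 9 was -1.89, and 0.89 without these 2 genes. This total was chosen after seeing the data.

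To check for pairs, the mean of each genotype was subtracted from every gene. The remainders of same-numbered KO and WT libraries correlated at 0.222, 0.204, 0.135, -0.224 and -0.181. These values do not compare whole transcriptomes. The numbers were not taken as pairs, and by this measure 2 of the 5 KO libraries correlated best with their own number. With the replicate block, 0 genes were called over 10 libraries (13 without the block), 0 genes and 0 members over the 4 libraries left of the 9 (0 without the block). Lamc1 was at -0.058 over the 10, and Cnn1, Acta2 and Col1a1 were at -0.018, -0.26 and -0.31 over the 4, with and without the block. Depth is unknown for all values.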
